A study of Mus musculus with 8 samples.

Results

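The genes described here make, sense or pass on the messenger cyclic GMP in perivascular fat dissected from the thoracic aorta. The set has 10 genes of the 18782 that had a probe set of their own. They were chosen by their known function, with no measured value in the rule: the nitric oxide (NO) synthases Nos1, Nos2 and Nos3, the cofactor enzyme gene Gch1, the guanylyl cyclase subunits Gucy1a3 and Gucy1b3, the natriuretic peptide receptors Npr1, Npr2 and Npr3, and the kinase gene Prkg1. Earlier results of these data were known when these 10 genes were chosen. Each had exactly 1 probe set in the platform annotation, so no choice between probe sets was needed. Gucy1a3 and Gucy1b3 are listed there under their current symbols, Gucy1a1 and Gucy1b1, and were matched as RefSeq synonyms.

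The samples were 4 arrays labelled RictoraP2KO and 4 labelled control, whose genotype is given as Rictorfl/fl. Rictor encodes the defining subunit of mTOR complex 2. The name aP2 refers to the promoter of Fabp4, a fatty acid binding protein gene of fat cells, which drives the Cre recombinase, and the series title places the deletion in brain as well as fat. Endothelium, smooth muscle and nerves in the tissue, where several of these genes are normally active, are not the cells this promoter is chosen for. In which cells of this tissue Rictor was deleted was not examined, so these cells cannot be taken as unaffected. All mice were male, 17 to 22 weeks old, kept under 24-hour light and dark conditions, starved overnight and killed at 9 am, and none was treated. Whether the controls carried Cre, and whether each array came from a separate animal, is not stated in the labels.

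NO is made from arginine by NO synthases, which need the cofactor tetrahydrobiopterin, and it activates soluble guanylyl cyclase, a heterodimer of an alpha and a beta subunit. Natriuretic peptides of the heart and vessel wall raise cyclic GMP by a second route, through receptors that are guanylyl cyclases themselves. Both routes meet at cyclic GMP-dependent protein kinase, which relaxes vascular smooth muscle and, in fat cells, promotes lipolysis and thermogenic gene expression. Perivascular fat is known to release NO and other factors that act on the vessel beside it.

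Values are log2 RMA signals of 1 probe set, and each difference is the mean of the RictoraP2KO arrays minus that of the control arrays, given with its standard error (SE), 95% interval and limma's p. The brightness of a probe set depends on its probes as well as on its RNA, so levels were not compared between genes, except with the array median of 3.76, which was the same in all 8 arrays. The Rictor signal itself went against the labels. It was 6.80, 6.66, 6.60 and 6.68 in the arrays labelled RictoraP2KO and 6.49, 6.56, 6.49 and 6.61 in the control arrays (difference 0.14, SE 0.063; limma adjusted p = 0.685). Where the probes of this set lie relative to the deleted part was not examined, so directions below rest on the labels. Fat markers bore out the tissue label: 12 of 13 measured adipocyte markers and 11 of 12 brown fat markers lay above the array median, the exceptions being Lep and Zic1, and Ucp1 ranged from 11.32 to 12.01. Single arrays carried signal of other tissues, namely neuron markers in control replicate 3, lung markers in control replicate 2 and skeletal muscle markers in RictoraP2KO replicate 2. The other arrays were not free of other tissue. Of 11 measured cardiac muscle markers 7 lay above the array median, and Actc1 ran from 6.66 to 9.84. The cardiac list mean ran from -1.05 to 1.27 in the arrays labelled RictoraP2KO and from -0.69 to 0.58 in the controls. B cell and lymph node markers were highest in RictoraP2KO replicate 2 (0.84, at most 0.10 elsewhere).

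None of the 10 genes differed between the groups by this test. The limma adjusted p-values ran from 0.831 to 0.999, where 0.00352% of all 28371 probe sets, which is 1 probe set, passed the threshold of 0.05. At an unadjusted p under 0.05 the count was 0 of 10, against 7.27% of all probe sets, and the values of the groups overlapped in all 10 genes, against no overlap in 4.25% of all probe sets. Differences ran from -0.13 for Gucy1b3 to 0.11 for Gucy1a3, with 6 above and 4 below 0. Over all probe sets 13823 were above and 14548 below 0. The median of the 10 differences was 0.03, beside -0.00325 over all probe sets. The median absolute difference was 0.09, beside 0.07 over all probe sets.

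**Figure D1:**
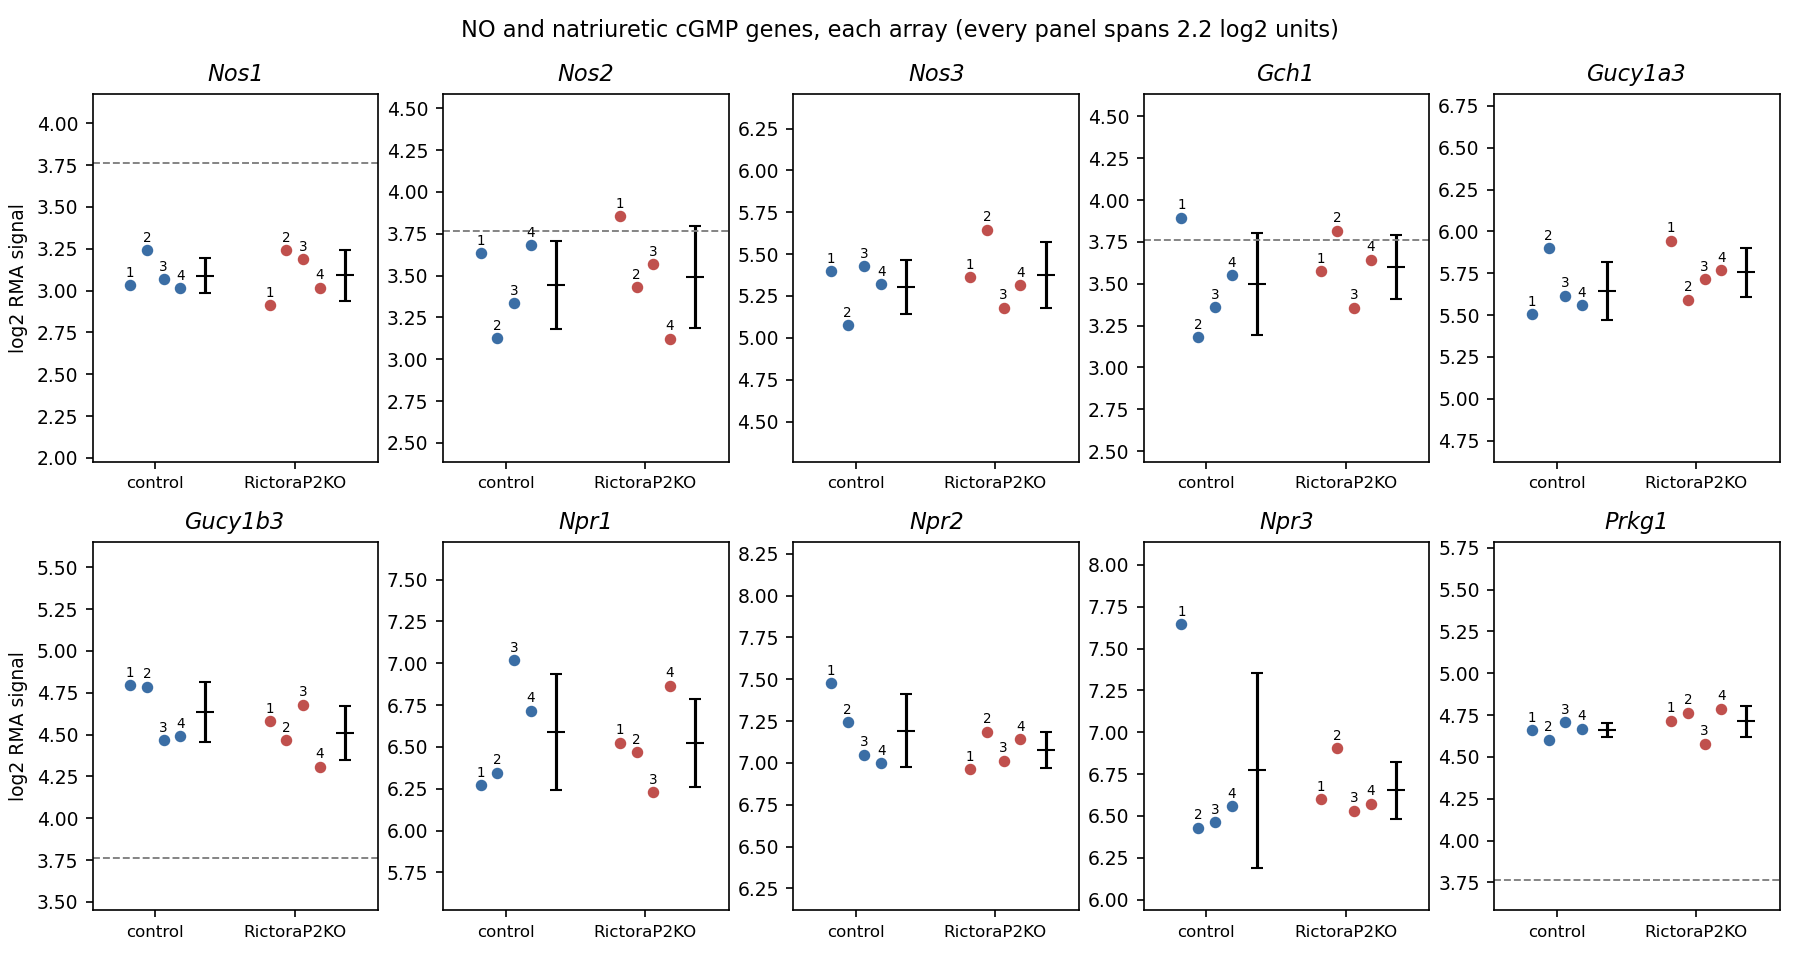
Log2 RMA signal (y axis) of each of the 10 genes in the 4 control arrays (blue) and the 4 arrays labelled RictoraP2KO (red). Numbers are replicate numbers, bars are mean ± SD (n = 4), and the dashed line is the array median of 3.76 where it falls within a panel. The groups overlap in every panel; Npr3 in control replicate 1, at 7.64, stands apart from the other arrays.

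Of the NO synthase genes, only Nos3 had a mean over the 8 arrays above the array median. Nos3 encodes the endothelial NO synthase. Its signal was 5.36, 5.65, 5.18 and 5.32 in RictoraP2KO replicates 1 to 4 and 5.40, 5.07, 5.43 and 5.32 in control replicates 1 to 4, above the median in all 8 arrays. The highest value belonged to RictoraP2KO replicate 2 and the lowest to control replicate 2, and the remaining arrays lay between 5.18 and 5.43 with the groups mixed. The means were 5.38 ± 0.20 (SD, n = 4) and 5.31 ± 0.16 (SD, n = 4), a difference of 0.07 (SE 0.115; 95% interval -0.19 to 0.33; limma adjusted p = 0.916). As a ratio, that interval runs from 0.876 to 1.26. The sign rested on those end arrays: the difference was -0.02 without RictoraP2KO replicate 2 and -0.01 without control replicate 2.

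Endothelial markers were measured beside Nos3, since in bulk tissue fewer cells of a type and less RNA per cell cannot be told apart. All 12 markers lay above the array median. A higher mean in the arrays labelled RictoraP2KO was seen in 9 of 12, beside 13823 of all 28371 probe sets, and none of the 12 passed the adjusted threshold. Kdr had no overlap between groups (0.24, SE 0.074; limma adjusted p = 0.651), as did 4.25% of all probe sets. The mean of the list, relative to the mean of each gene over the arrays, ran from -0.15 to 0.14 in the arrays labelled RictoraP2KO and from -0.13 to 0.02 in the control arrays. RictoraP2KO replicate 2, the highest for Nos3, was also highest for endothelial markers, while control replicate 2, the lowest for Nos3, stood at -0.01. The part of endothelial content in the Nos3 signal was not tested.

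Nos1, the neuronal NO synthase gene, was below the array median in all 8 arrays. It stood at 2.91, 3.24, 3.19 and 3.02 in RictoraP2KO replicates 1 to 4 and at 3.03, 3.24, 3.07 and 3.02 in the control replicates. The groups were interleaved and the difference was 0.00075 (SE 0.089; 95% interval -0.20 to 0.20; limma adjusted p = 0.999). Its sign turned when any of 5 arrays was left out, within -0.05 to 0.06. In control replicate 3 the neuron marker mean was 1.23, with the remaining 7 arrays at -0.30 to -0.04, and Nos1 in that array, at 3.07, lay amid the others. Skeletal muscle, another tissue with Nos1, had its highest marker mean, 1.35, in RictoraP2KO replicate 2, where Nos1 was as high as in control replicate 2.

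Nos2, the inducible NO synthase gene of activated macrophages, was above the array median in 1 of 8 arrays. Its values were 3.85, 3.43, 3.57 and 3.12 in RictoraP2KO replicates 1 to 4 and 3.63, 3.12, 3.34 and 3.68 in the control replicates. RictoraP2KO replicate 1 was the array above the median, and the lowest value of each group was nearly the same. The difference was 0.05 (SE 0.172; 95% interval -0.34 to 0.44; limma adjusted p = 0.968), and it turned to -0.07 without RictoraP2KO replicate 1 and to -0.06 without control replicate 2. Of 11 measured macrophage markers, 11 had a higher mean in the arrays labelled RictoraP2KO, beside 13823 of all 28371 probe sets. None passed (smallest limma adjusted p = 0.649, for Mrc1). Their differences spanned 0.0055 for Cd68 to 0.55 for Mpeg1. Unadjusted limma p was under 0.05 for Mrc1 (0.0081), Mpeg1 (0.021) and C1qb (0.048) and above it for the rest. Of all probe sets, 7.27% were under it. Averaged over the markers, RictoraP2KO arrays lay between -0.24 and 0.36 and control arrays between -0.29 and 0.04, so the groups overlapped. RictoraP2KO replicate 1 was highest for both the marker list and Nos2. Other arrays differed in order. RictoraP2KO replicate 4, with a marker mean of 0.20, was lowest for Nos2, and control replicate 4, second highest for Nos2, had a marker mean of -0.09. The part of macrophage content in Nos2 was not tested.

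Gch1 encodes GTP cyclohydrolase, the first and rate-limiting enzyme of tetrahydrobiopterin synthesis. Its signal lay above the array median in 2 of 8 arrays, control replicate 1 at 3.90 and RictoraP2KO replicate 2 at 3.82. The other RictoraP2KO arrays stood at 3.58, 3.36 and 3.65 and the other controls at 3.18, 3.36 and 3.55. The groups overlapped across almost their whole ranges, and the difference was 0.10 (SE 0.156; 95% interval -0.25 to 0.46; limma adjusted p = 0.907). Without control replicate 2, the lowest array and the one with lung signal, it was -0.0038.

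**Figure D2:**
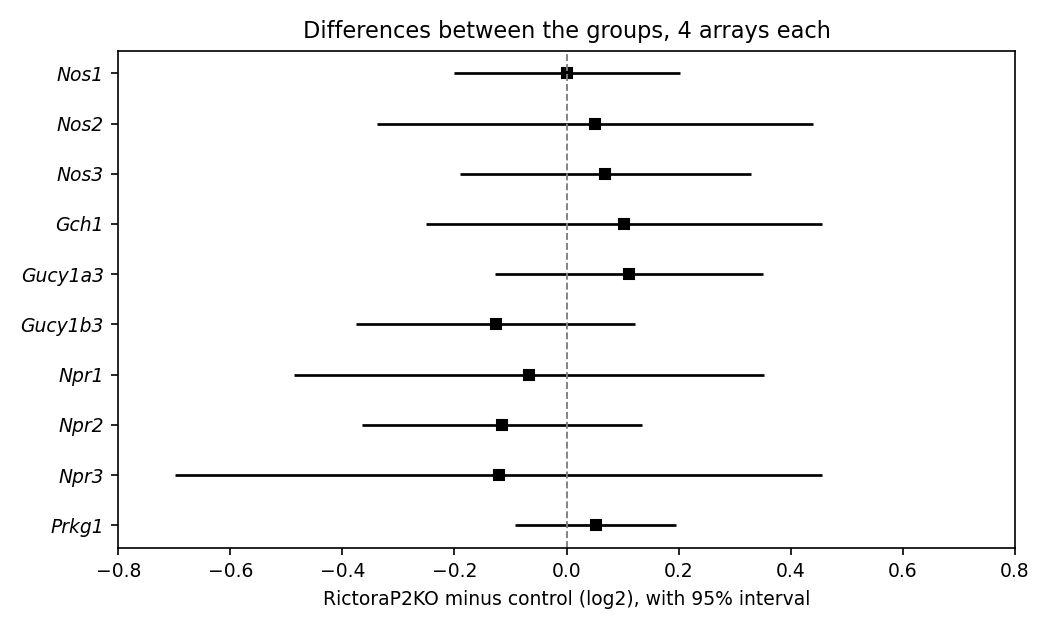
Difference between the groups on the log2 scale (x axis, RictoraP2KO minus control) for each of the 10 genes, with squares for the limma estimate and lines for its 95% interval (n = 4 arrays per group). Every interval includes 0; the widest belongs to Npr3 (-0.70 to 0.46) and the narrowest to Prkg1 (-0.09 to 0.20).

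The subunit genes of soluble guanylyl cyclase, the NO receptor, were above the array median in all 8 arrays. Gucy1a3, the alpha subunit gene, stood at 5.95, 5.59, 5.72 and 5.77 in RictoraP2KO replicates 1 to 4 and at 5.50, 5.90, 5.62 and 5.56 in the control replicates. Control replicates 1 and 4 lay below every RictoraP2KO array, and control replicates 2 and 3 inside their range. Control replicate 2, second highest of the 8, was the array with lung epithelial markers (1.86, against -0.39 to -0.18 elsewhere). The difference was 0.11 (SE 0.105; 95% interval -0.13 to 0.35; limma adjusted p = 0.842). It was 0.20 without control replicate 2 and 0.05 without RictoraP2KO replicate 1. With the lung, neuron and skeletal muscle arrays all left out it was 0.28 (limma adjusted p = 0.969), with 3 arrays labelled RictoraP2KO left against 2 controls. Those controls were replicates 1 and 4, the lowest arrays for Gucy1a3. Whether lung tissue contributed to the Gucy1a3 signal of that control array was not tested.

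Gucy1b3, the beta subunit gene, had a difference of opposite sign. Its values were 4.58, 4.46, 4.68 and 4.31 in RictoraP2KO replicates 1 to 4 and 4.79, 4.79, 4.47 and 4.49 in the control replicates. Control replicates 1 and 2 were the highest of the 8 and the other controls lay inside the range of the RictoraP2KO arrays. The difference was -0.13 (SE 0.110; 95% interval -0.38 to 0.12; limma adjusted p = 0.831), the smallest adjusted p of the 10 genes. It remained below 0 in each of the 8 omissions of 1 array, between -0.18 and -0.06.

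The subunits form 1 enzyme and their genes are neighbours in the RefSeq annotation of assembly GRCm38.p6, with 0 annotated genes wholly between them. No relation between the signals of these genes was detected over the 8 arrays, a number too small to exclude one. Pearson's r was 0.08 (exact two-sided permutation p = 0.836) and Spearman's rho -0.07 (exact two-sided permutation p = 0.882), for 1 relation tested. Without the arrays farthest from the median of Gucy1a3, RictoraP2KO replicate 1 and control replicate 2, r was -0.52, so its sign rested on them. With each group centred on its own mean, r was 0.27. Control replicate 1 was lowest of all arrays for Gucy1a3 and highest for Gucy1b3, and without it r was 0.46 (exact two-sided permutation p = 0.298).

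All 3 natriuretic peptide receptor genes were above the array median in every array. Npr1 encodes the guanylyl cyclase receptor for atrial and brain natriuretic peptides, the receptor through which these peptides drive lipolysis. Its signal was 6.53, 6.47, 6.23 and 6.87 in RictoraP2KO replicates 1 to 4 and 6.27, 6.35, 7.02 and 6.72 in the control replicates. Both groups held low and high arrays, with control replicate 3 highest and RictoraP2KO replicate 3 lowest. The difference was -0.07 (SE 0.185; 95% interval -0.49 to 0.35; limma adjusted p = 0.958). It turned to 0.08 without control replicate 3, which was also the array with neuron markers, and to 0.03 without RictoraP2KO replicate 3.

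Npr2 encodes the guanylyl cyclase receptor for C-type natriuretic peptide. Its values were 6.96, 7.19, 7.01 and 7.14 in RictoraP2KO replicates 1 to 4 and 7.48, 7.24, 7.05 and 6.997 in the control replicates. Control replicate 1 was the highest and the remaining 7 arrays lay within 6.96 to 7.24. The difference was -0.11 (SE 0.110; 95% interval -0.36 to 0.14; limma adjusted p = 0.844), and -0.02 without control replicate 1.

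Npr3 encodes the clearance receptor, which binds and removes natriuretic peptides and has no guanylyl cyclase domain, so in fat it sets how much peptide reaches Npr1. It had the widest spread of the 10 genes. In control replicate 1 it stood at 7.64, and the other control replicates were at 6.43, 6.46 and 6.56. RictoraP2KO replicates 1 to 4 stood at 6.60, 6.90, 6.53 and 6.57. Apart from control replicate 1, then, 3 of 4 RictoraP2KO arrays were above all controls and the other, replicate 3, lay just below control replicate 4. With all arrays the difference was -0.12 (SE 0.255; 95% interval -0.70 to 0.46; limma adjusted p = 0.939), which as a ratio runs from 0.616 to 1.37. Without control replicate 1 the sign turned, to 0.17 (limma adjusted p = 0.776). With the lung, neuron and skeletal muscle arrays left out the difference was -0.53 (limma adjusted p = 0.969). The only controls left in that run were replicates 1 and 4, so the high value of control replicate 1 weighed more.

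The residual SD of Npr3 within groups, 0.43, exceeded that of 97.0% of all probe sets, and that of Npr1, 0.31, exceeded 92.7%. Control replicate 1 was also the highest array for Npr2, Gch1 and Gucy1b3 and the lowest for Gucy1a3. Its adipocyte marker mean was -0.04 and its brown fat mean 0.19, both within the range of the other arrays, and its lung, neuron and skeletal muscle means were -0.39, -0.14 and -0.22.

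**Figure D3:**
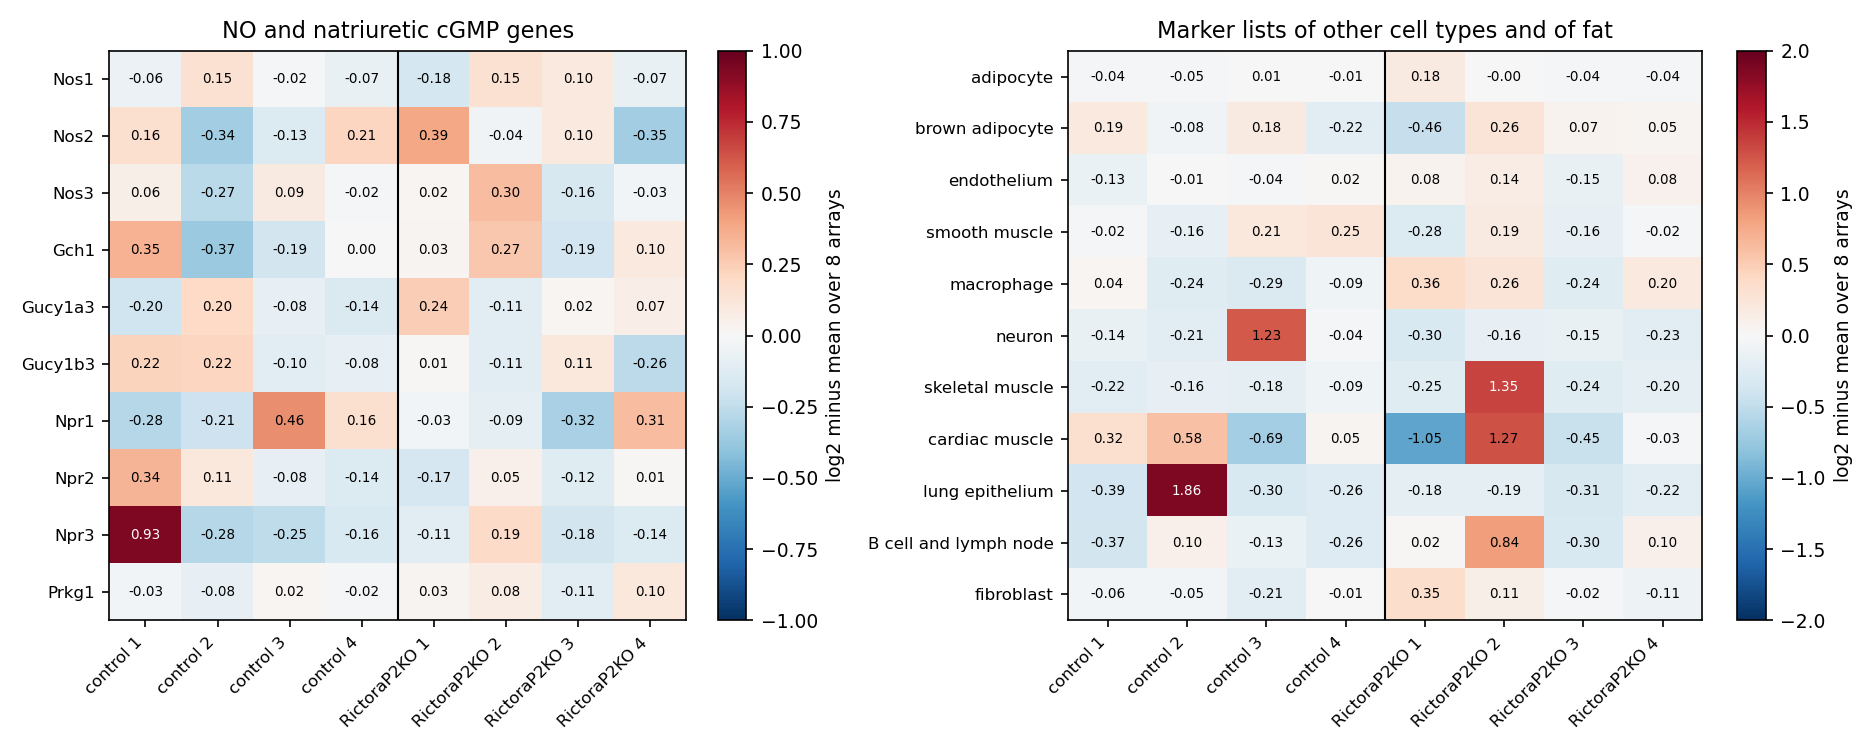
Log2 signal minus its mean over the 8 arrays, for the 10 genes (left) and averaged over the genes of 11 marker lists (right); columns are arrays, with RictoraP2KO arrays to the right of the vertical line, and the colour scales of the panels differ. The neuron, lung and skeletal muscle lists are each high in 1 array, and Npr3 is high in control replicate 1, where none of those lists is high.

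Over the 8 arrays, the genes above the array median whose pattern was most like that of Npr3, of 10165 examined, were Metrnl (Pearson's r 0.95, Spearman's rho 0.60), Adam8 (r 0.95, rho 0.98) and Ccl2 (r 0.94, rho 0.83). Metrnl encodes a secreted protein of adipose tissue and muscle, Adam8 a metalloprotease of myeloid cells and Ccl2 a chemokine that draws monocytes. Being picked as the highest among so many, these correlations describe the arrays and carry no test. The Ccl2 signal was 6.11 in control replicate 1 and 5.59 in RictoraP2KO replicate 2, while the remaining arrays spanned 4.53 to 5.03. When control replicate 1 and RictoraP2KO replicate 2 were left out, r was 0.02 for Metrnl, 0.95 for Adam8 and 0.78 for Ccl2. The Metrnl likeness therefore rested on those arrays.

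**Figure D4:**
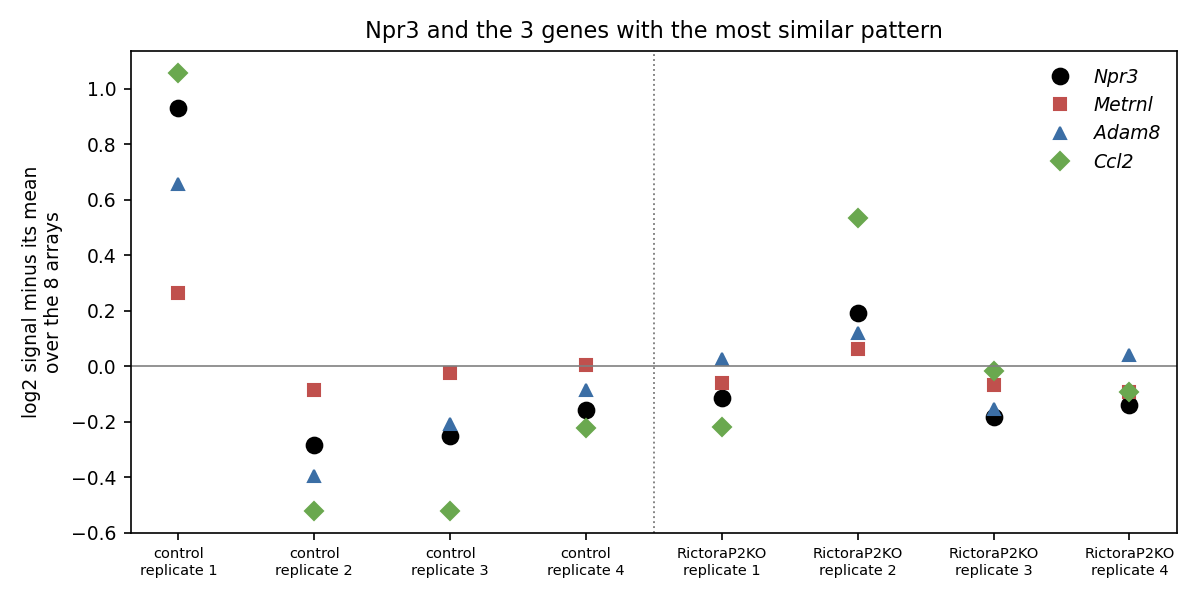
Log2 signal of Npr3 and of Metrnl, Adam8 and Ccl2 minus the mean of each over the 8 arrays (y axis), by array (x axis). All 4 genes are highest in control replicate 1, where Npr3 is at 7.64 and Ccl2 at 6.11.

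Prkg1, the gene of cyclic GMP-dependent protein kinase I, was the steadiest of the set and lay above the array median in all 8 arrays. Its values were 4.72, 4.76, 4.58 and 4.79 in RictoraP2KO replicates 1 to 4 and 4.66, 4.60, 4.71 and 4.67 in the control replicates. The lowest and the highest arrays both belonged to the RictoraP2KO group. The difference was 0.05 (SE 0.063; 95% interval -0.09 to 0.20; limma adjusted p = 0.874), or a ratio between 0.939 and 1.15, and its residual SD of 0.07 exceeded that of 14.6% of all probe sets. Smooth muscle markers, which mark the cells best known for this kinase, ran from -0.28 to 0.19 in the arrays labelled RictoraP2KO and from -0.16 to 0.25 in the controls. Of these markers 2 of 12 were higher in the former, beside 13823 of all 28371 probe sets, and none passed. The genes most like Prkg1 were Adgrg1 (r 0.98, rho 0.98), Cdkn1a (r 0.95, rho 0.93) and Apbb1ip (r 0.94, rho 0.90), and those most like Nos3 were Fam76a (r 0.97, rho 0.90), Zfp646 (r 0.97, rho 0.76) and Slc7a5 (r 0.96, rho 0.90), again without a test. With the arrays farthest from the median left out, the lowest r was 0.899 among the Prkg1 genes and 0.84 among the Nos3 genes.

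The rest of the pathway was read from 6 lists, of which 66 of 71 genes had a probe set of their own. Of these 66, 0 passed in either direction after adjustment over all probe sets (smallest limma adjusted p = 0.649). At an unadjusted p under 0.05 there were 4, or 6.06%, close to the 7.27% of all probe sets, and 4 had no overlap between groups, beside 4.25% of all probe sets. The median difference was -0.02, with 28 above and 38 below 0.

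Hspb6, a small heat shock protein that cyclic nucleotide-dependent kinases phosphorylate in muscle, had the smallest p of the lists. It stood at 6.77, 7.70, 7.72 and 7.51 in RictoraP2KO replicates 1 to 4 and at 8.30, 8.05, 8.15 and 8.05 in the control replicates, without overlap. The difference was -0.72 (SE 0.195; limma adjusted p = 0.649). RictoraP2KO replicate 1 was the lowest array, and also the lowest for cardiac muscle markers (-1.05) and smooth muscle markers (-0.28); without it the difference was -0.50 (limma adjusted p = 0.408). That array was also the lowest of the 8 for brown fat markers (-0.46, the others -0.22 to 0.26; Elovl3 at 6.84) and the highest for the adipocyte (0.18), macrophage (0.36) and fibroblast (0.35) lists. Its adipocyte mean came mainly from Lep, at 5.81 there and 2.74 to 3.755 in the remaining arrays. In other arrays the order of Hspb6 and the muscle markers differed. RictoraP2KO replicate 2, with the highest cardiac mean (1.27) and a smooth muscle mean of 0.19, stood below every control at 7.70. Control replicate 3, at 8.15, had a cardiac mean of -0.69 and a smooth muscle mean of 0.21. The part of tissue content in the Hspb6 difference was not tested. Pde3b, the fat cell phosphodiesterase that cyclic GMP inhibits, averaged 10.37 ± 0.09 and, in the controls, 10.17 ± 0.08 (SD, n = 4 each). The groups touched at 10.26, and they differed by 0.20 (SE 0.069; limma adjusted p = 0.651). The other 14 of 16 cyclic GMP effectors had unadjusted p above 0.05.

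In tetrahydrobiopterin metabolism, 4 of 5 measured genes had a difference below 0, and none passed. At an unadjusted p under 0.05 there were 2 of 5, or 40%, against 7.27% of all probe sets, and 2 of 5 had no overlap between groups, against 4.25% of all probe sets. Pcbd1 encodes a dehydratase that recycles the cofactor and also binds the transcription factor HNF1. It stood at 2.56, 2.94, 2.81 and 2.54 in RictoraP2KO replicates 1 to 4 and at 3.72, 3.08, 4.36 and 2.96 in the control replicates. The groups did not overlap, and 1 array, control replicate 3, which also carried the neuron markers, lay above the array median. The difference was -0.82 (SE 0.283; limma adjusted p = 0.653), or -0.54 without control replicate 3. Qdpr, dihydropteridine reductase of the same recycling route, averaged 7.71 ± 0.13 and, in the controls, 7.90 ± 0.03 (SD, n = 4 each). The groups did not overlap, and they differed by -0.19 (SE 0.073; limma adjusted p = 0.668).

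**Figure D5:**
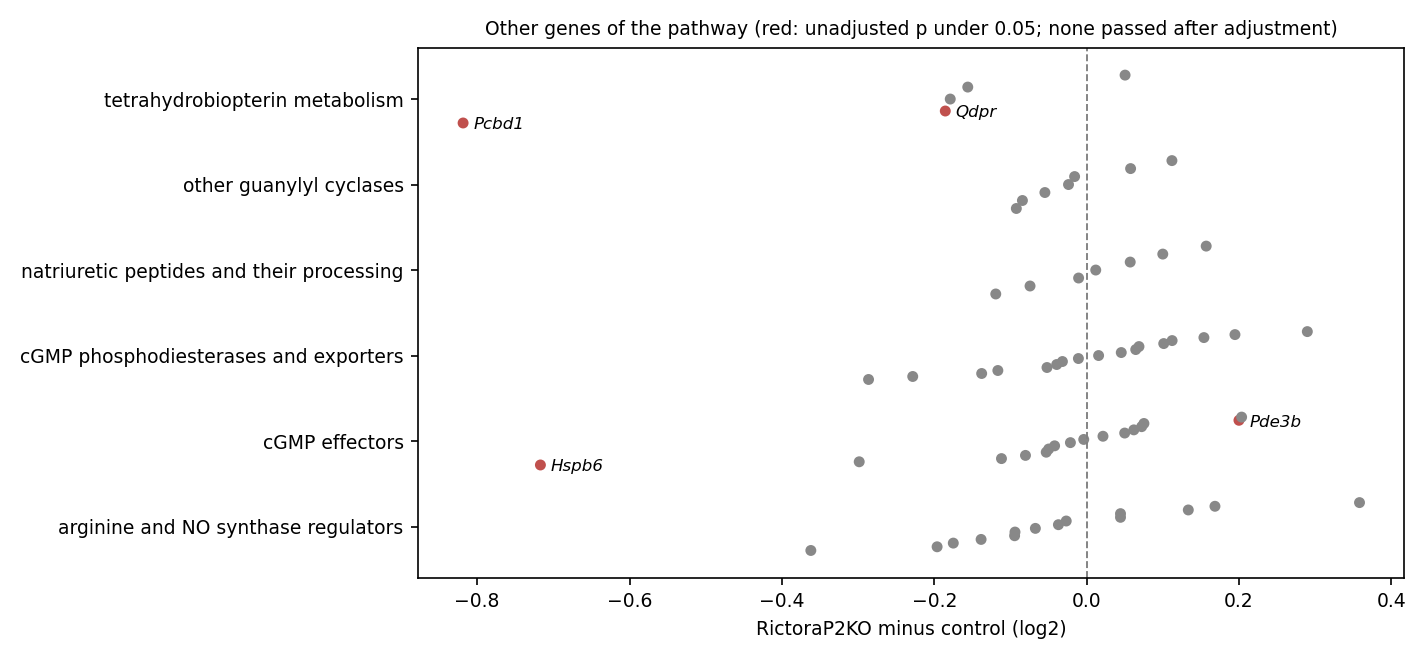
Difference between the groups on the log2 scale (x axis, RictoraP2KO minus control) for each of 66 other genes of the pathway, 1 point per gene, by list (y axis); red points have an unadjusted p under 0.05. The labelled points are Hspb6, Pde3b, Pcbd1 and Qdpr, and no point passed after adjustment over all probe sets.

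Among the peptides, Nppa, the atrial natriuretic peptide gene, was named here after its values were seen. It stood at 3.29, 8.19, 3.24 and 4.67 in RictoraP2KO replicates 1 to 4 and at 5.33, 5.29, 4.21 and 4.33 in the control replicates, a residual SD larger than that of 99.9% of all probe sets. RictoraP2KO replicate 2, highest for Nppa, also had the highest cardiac marker mean, 1.27, with the atrial myosin light chain gene Myl7 at 8.58. At the low end Nppa was nearly equal in RictoraP2KO replicate 3 (3.24) and replicate 1 (3.29), where the cardiac means were -0.45 and -1.05. Control replicate 3 had the next lowest cardiac mean after replicate 1, -0.69, but Nppa there was 4.21. The ventricular genes Myl2, at 2.53, and Myl3, at 3.29, were not at their highest in RictoraP2KO replicate 2, but both lay below the array median in all 8 arrays. The marker list holds Nppa itself among its 11 measured genes, and the part of atrial tissue in the Nppa signal was not tested. The group difference was 0.06 (SE 0.991; limma adjusted p = 0.995). The B-type peptide gene Nppb, with a difference of 0.16 (SE 0.150), and the C-type gene Nppc, also named after its values were seen, with 0.01 (SE 0.087), lay below the array median in all arrays. Mme, the gene of neprilysin, which degrades these peptides, differed by -0.07 (SE 0.097) at a level of 9.04 ± 0.15 against 9.12 ± 0.14 (SD, n = 4).

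The other lists held no gene at an unadjusted p under 0.05. Of 14 measured genes of arginine supply and NO synthase regulation, 5 were above and 9 below 0. Their smallest p belonged to Cav1 (-0.18, SE 0.097; limma adjusted p = 0.749), which encodes the caveolin that holds the endothelial synthase inactive, and Cav3 (0.13, SE 0.076; limma adjusted p = 0.752), its muscle relative. Of 17 cyclic GMP phosphodiesterases and exporters, 9 were above and 8 below 0. Pde6h differed by -0.23 (SE 0.118) and Pde1b by 0.19 (SE 0.104), the former below the array median in every array. Of the 7 other guanylyl cyclase genes, 1 lay above the array median, Gucy1a2, the alternative alpha subunit, named after its values were seen, which differed by 0.11 (SE 0.106). The smallest p-values there belonged to Gucy2g (-0.09) and Gucy2d (-0.08), both below the median in all arrays.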

How the data were processed

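RNA of 8 samples was measured on 1 expression array each. The authors deposited log2 values per probe set; the submitters' processing notes name RMA and Affymetrix Power Tools 1.10.2, and no genome build is named for these values. RefSeq's GRCm38.p6 annotation served only for synonyms and gene order. Sorted values were nearly equal between arrays (at most 0.03 apart at any rank), so a difference in total RNA output would not be seen. Correlations between arrays ran from 0.989 to 0.995.

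Gene names came from GEO's platform annotation, for probe sets with 1 symbol (21158 of 28371); where a gene had several, the one with the highest mean stood for it. limma 3.58.1 in R 4.3.3 (lmFit, eBayes, two-sided) was fitted to all probe sets, with no filter or covariate, with Benjamini-Hochberg adjustment and a threshold of 0.05, and was tested on simulated data. The labels do not tie arrays to separate animals, so the p-values reflect only how these samples vary, which may be technical, and the number of arrays limits precision.

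The genes and lists were chosen with earlier results of these data known. Named genes were the 10 genes, Rictor, the 2 with the smallest p in each of 6 pathway lists, and the 3 most similar in pattern to Nos3, Npr3 and Prkg1; others are marked in the text or are markers. A list mean per array averages its genes' log2 values minus their means. Same-numbered arrays of the groups did not deviate together (correlations -0.15, -0.03, 0.03 and 0.09), so numbers were not taken as pairs. The alternatives are given in the closing section.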

Additional observations from a re-analysis of the deposited data

Results flagged for a closer look

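In the control group, Npr3 in replicate 1 lay far from the rest, at 7.64 against 6.56 in the nearest array. Pde6h was low in RictoraP2KO replicate 2, at 1.99 against 2.40 in the nearest array of its group, below the array median in both. Of the marker lists, neuron markers were high in control replicate 3 (1.23, next -0.04), skeletal muscle markers in RictoraP2KO replicate 2 (1.35, next -0.20) and lung epithelial markers in control replicate 2 (1.86, next -0.26). These 5 came from 68 groups of 4 arrays examined, and chance alone marks about 1 in 20 such groups.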

How the results depend on the processing

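None of the 10 genes and none of the 66 pathway genes passed the adjusted threshold under any alternative run. Nos3 was the only NO synthase with a mean above the array median in each run where levels were counted (8 omissions of 1 array and 5 others). Among these 5, the run on bright probe sets only, counted before its filter, and the centring of each array on its median could not change that count. Of 167 values for the 10 genes, 18 turned sign, all of differences that had not passed. All 18 came from leaving out arrays or weighting them. The other settings, such as repeated normalisation or the replicate number as a block, left each difference the same or nearly so. Those settings could hardly turn a sign, so the 167 overstate how steady the signs were. Without the 3 arrays high for neuron, lung or skeletal muscle markers, differences were -0.14 for Nos2, -0.075 for Nos3, -0.20 for Gch1 and 0.046 for Npr1. The median of the 10 was then -0.10, 1 gene (Gucy1a3) had an unadjusted p under 0.05 and 0 probe sets passed. The share of all probe sets at that unadjusted p was not computed for this run, so the count has nothing to be read against. The controls kept were replicates 1 and 4, the lowest arrays for Gucy1a3, and replicate 1 was the highest for Npr3. The arrays kept were not free of cardiac muscle signal. With array weights Nos1 was -0.0139. Over the 8 omissions differences ran from -0.0491 to 0.0596 for Nos1, -0.0694 to 0.17 for Nos2 and -0.0206 to 0.13 for Nos3. They ran from -0.0038 to 0.23 for Gch1, -0.18 to 0.0766 for Npr1 and -0.24 to 0.17 for Npr3. The median of the 10 ran from -0.03 to 0.06. The r between Gucy1a3 and Gucy1b3 ran from -0.23 (without control replicate 2) to 0.46 (without control replicate 1). The single probe set that passed of 28371 was lost among bright probe sets only (0) and with the replicate number as a block (replicate block, 0), where again 0 of the 10 genes passed; over the omissions the count ran from 0 to 5, the 5 without RictoraP2KO replicate 1. The count of pathway genes at an unadjusted p, an alternative chosen after the data were seen, ran from 3 to 5. The bright filter leaves out Nos1, Nos2 and Gch1.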
